A study of Mus musculus with 37 samples.

Results

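Chemokines are small secreted or membrane-tethered proteins that bind G protein-coupled receptors on leukocytes and direct where those cells move. In a lymph node, the CCR7 ligands CCL19 and CCL21 and the CXCR5 ligand CXCL13 are known for holding T cells, dendritic cells and B cells in their zones, while inflammatory chemokines such as CCL2, CCL8, CXCL9 and CXCL10 draw monocytes and effector lymphocytes. Macrophages, fibroblastic reticular cells, endothelium and dendritic cells are all known sources. The genes described here are all rows of the deposited count table whose symbol begins with Ccl, Cxcl, Xcl or Cx3cl followed by a digit and carries no pseudogene suffix, which gave 42 of 56351 genes.

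The RNA came from RiboTag mice, in which Cre recombinase switches on a haemagglutinin-tagged copy of the ribosomal protein RPL22 so that ribosomes and the mRNA on them can be pulled down with an antibody. Every mouse was CD169 Cre KI/KI and Rpl22HA homozygous, with Cre driven from the gene of the sinus macrophage receptor CD169 (Siglec1). All groups, spleen and isotype control included, share these alleles, and the labels name no drug or infection. They do not give the age, strain or number of animals behind a library here. The labels name cd169 macrophages as the cell type of every library, spleen included. The 37 libraries comprised 3 from spleen, 1 isotype control from jejunal node and 3 from each of 11 node sites. Of those sites, mediastinal, deep cervical, super cervical, inguinal, ceco-colonic and ileal node were deeply sequenced, and iliac, celiac, liver, jejunal and duodenal node were not.

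Depth divided the sites. Ileal, ceco-colonic, inguinal, super cervical, deep cervical, mediastinal and spleen libraries held 1165387 to 69139450 counts and entered 1 model of 21 libraries, whereas the 15 libraries of the other 5 sites held 221911 to 1950752 and were modelled apart. Mediastinal libraries were the deepest, at 41240156 to 69139450 counts, and ileal libraries held 18811172 to 31849079. Ceco-colonic libraries held 2373771 to 4194213 counts, and no inguinal, super cervical or deep cervical library held more than 16823454. Depth and site therefore cannot be told apart in the mediastinal contrast or between ileal and ceco-colonic node. Levels in the deeper sites are counts scaled to 1000000 (CPM) on TMM-adjusted library totals, on which 3 counts correspond to 0.0299 CPM in the deepest library and 4.1 CPM in the shallowest. A gene was called at an adjusted p under 0.05 in edgeR's quasi-likelihood test with Benjamini-Hochberg adjustment over all genes tested, and each ± after a log2 fold change is its standard error. A log2 fold change compares means of site log levels, so it can differ from the ratio of linear means. Siglec1 itself lay between 0 and 3.32 CPM in the 21 libraries, while the sinus macrophage receptor Marco lay between 187 and 6952 CPM. Summed markers of B cells, 7 of 7 with counts at every deep site, reached 301 to 2590 CPM in the nodes, so the pull-downs also carried RNA of other cells. In such mixed RNA, fewer cells of a type and less RNA per cell cannot be told apart. The labels do not say that the 3 libraries of a site came from separate animals, so the p-values measure the spread between these libraries only.

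Of the 42 chemokine ligand genes, 26 passed the filter on low counts in the 21 libraries. An F test over the 6 deep node sites called 23 of these 26, where 60.9% of all 16878 genes tested were called. Ccl2, Ccl4 and Ccl25 were not called in it. Ileal and ceco-colonic nodes together differed from the other 4 nodes in 6 of 26 ligand genes, against 4.60% of all genes. Of these 1 was higher and 5 were lower, against 1.75% and 2.85% of all genes. Ileal and ceco-colonic node differed from each other in 1 gene, Cxcl10, against 0.474% of all genes, and it was higher in ileal node, as 0.367% of all genes were. Mediastinal node differed from the other 5 nodes in 16 genes, 14 higher and 2 lower, against 48.4% of all genes (26.2% higher and 22.1% lower). Inguinal node differed in 6, 3 in each direction, against 21.8% of all genes (15.4% higher and 6.46% lower). Super cervical node differed in 4, all higher, against 6.99% (5.63% higher and 1.36% lower). Deep cervical node differed in 12, 8 higher and 4 lower, against 38.0% (21.9% higher and 16.1% lower). Spleen differed from the 6 nodes in 22, 4 higher and 18 lower, against 61.5% (27.1% higher and 34.4% lower). The shares for the mediastinal, deep cervical and inguinal contrasts therefore stand on backgrounds in which many genes moved. Every one of these contrasts reuses the same node libraries, so they are not independent of each other.

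The median log2 fold change of the 26 genes was -0.62 for ileal and ceco-colonic against the other 4 nodes, 1.26 for mediastinal, -0.34 for inguinal, 0.07 for super cervical, -0.47 for deep cervical and -3.44 for spleen. The corresponding medians over all genes tested were -0.02, 0.10, -0.09, 0.00084, 0.02 and -0.35. These medians cover the genes that passed the filter, not all 42. Upper quartile scaling moved the all-gene median to -0.11 in the mediastinal contrast, -0.13 in the deep cervical contrast, 0.11 in the super cervical contrast, 0.03 in the inguinal contrast and -0.0042 in spleen, so changes of that size are not separable from scaling. Under it the ligand calls became 3 higher and 1 lower in inguinal node, and 7 higher and 7 lower in deep cervical node. Shares of all genes called under it in these contrasts are not given here. Of all genes called in the mediastinal contrast, 4428 of 8166 were higher with TMM and 3462 of 8034 with upper quartile scaling. For ileal and ceco-colonic nodes the same figures were 296 of 777 and 467 of 861.

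**Figure D1:**
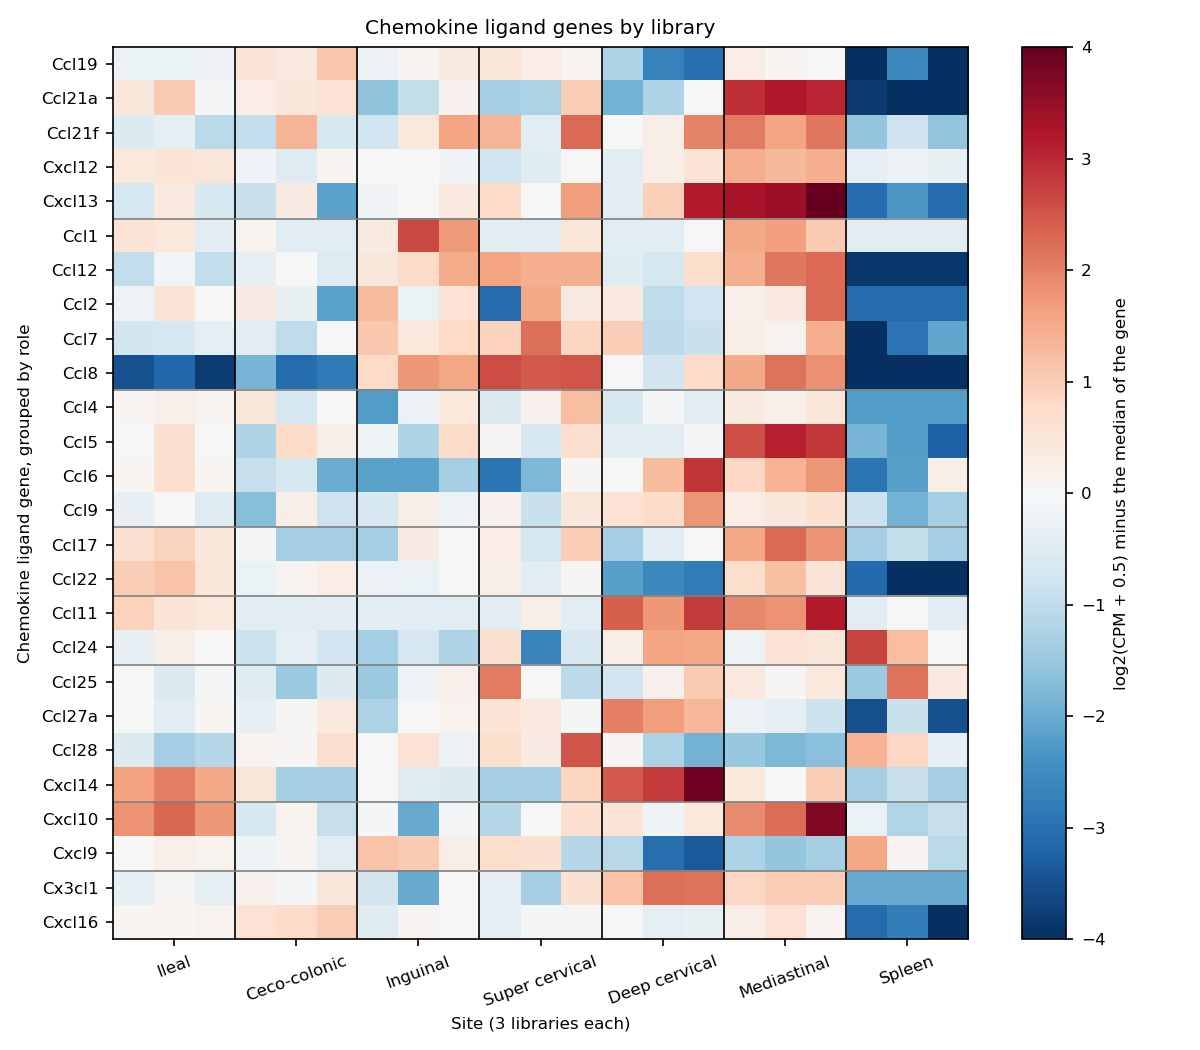
Level of each of the 26 ligand genes that passed the filter (rows, grouped by role) in each of 21 libraries (columns, 3 per site), as log2(CPM + 0.5) minus the median of that gene over the 21 libraries. Red is above and blue below the gene's own median; Ccl8 is blue in the 6 ileal and ceco-colonic libraries, Ccl21a, Ccl5 and Cxcl13 are red in the 3 mediastinal ones, and most rows are blue in the 3 spleen libraries.

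Ccl8, Ccl12, Ccl7 and Ccl2 encode monocyte-attracting chemokines of the MCP family, which act mainly through CCR2, with CCL8 in the mouse also a ligand of CCR8. Ccl8 showed the widest site range of the 4. Its 3 ileal libraries held 2.42, 3.19 and 1.88 CPM and its ceco-colonic libraries 8.60, 3.39 and 4.16 CPM. Inguinal libraries held 56.5, 108 and 94.6 CPM and super cervical libraries 198, 178 and 187 CPM. Deep cervical libraries held 32.3, 19.2 and 55.4 CPM and mediastinal libraries 93.3, 149 and 115 CPM. All 6 ileal and ceco-colonic libraries lay below all 12 of the other nodes, by a log2 fold change of -4.60 ± 0.33 (adjusted p = 9.23e-10). Super cervical node lay above every other node library, with means of 187.5 ± 10 CPM (SD, n = 3) there and 49.8 CPM over the other 5 sites, a log2 fold change of 3.09 ± 0.27 (adjusted p = 1.89e-08). Mediastinal and inguinal node were also higher than the other 5, with log2 fold changes of 2.30 ± 0.27 (adjusted p = 2.05e-06) and 1.75 ± 0.28 (adjusted p = 0.000303), although both lay below super cervical node. The contrast for deep cervical node was 0.22 ± 0.31 (adjusted p = 0.595). In order of mean level the sites ran super cervical, mediastinal, inguinal, deep cervical, ceco-colonic and ileal, and among neighbours in this order the libraries overlapped between mediastinal and inguinal node. Ceco-colonic libraries lay just above ileal ones, a difference that was not called (-1.16 ± 0.46, adjusted p = 0.228).

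Markers of other cells moved with the contrast of ileal and ceco-colonic against the other 4 nodes as well. Of the tested mast cell markers 3 of 4 were lower, and the 6 listed markers summed to 2.9 to 8.78 CPM in these 6 libraries against 8.66 to 37 CPM in the other 12; Mcpt4 was at 0 in ceco-colonic node. Markers of salivary gland (4 of 5 tested), keratinising epithelium (3 of 4), lung and airway epithelium (3 of 6) and erythroid cells (4 of 6) were lower, whereas 3 of 8 markers of lymphatic endothelium were higher. Sinus and resident macrophages had 2 of 12 tested markers higher, dendritic cells 2 of 9, reticular stroma 1 of 12 and blood and high endothelium 1 of 6. Follicular dendritic cells had 1 of 6 lower, and megakaryocytes and platelets 1 of 3. Of all genes, 1.75% were called higher and 2.85% lower. The part of these cells in the lower levels of Ccl8 and the other ligand genes was not tested.

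Ccl12 followed a like order over a narrower range. It held 3.15, 6.26 and 3.20 CPM in ileal, 5.31, 6.78 and 4.62 CPM in ceco-colonic and 4.66, 3.93 and 11.4 CPM in deep cervical libraries. It held 9.54, 11.9 and 19.8 CPM in inguinal, 21, 19.5 and 18.9 CPM in super cervical and 19.0, 31.2 and 34.2 CPM in mediastinal libraries. The deep cervical libraries thus overlapped the low group, and the other 3 sites lay above the 6 ileal and ceco-colonic libraries. Ileal and ceco-colonic nodes were lower by -1.65 ± 0.30 (log2, adjusted p = 0.00139), and mediastinal node was higher by 1.72 ± 0.29 (adjusted p = 0.00015). The super cervical contrast of 1.10 ± 0.33 (adjusted p = 0.0423) was not stable: its call was lost in 16 of the 21 fits that left out 1 library, with adjusted p from 0.0526 to 0.311. Across the 18 deep node libraries, log levels of Ccl8 and Ccl12 had a Pearson correlation of 0.86, the highest of the 325 pairs among the 26 genes, computed over libraries that share sites and depth.

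Ccl7 held 4.24, 4.47 and 5.58 CPM in ileal and 5.31, 3.39 and 7.39 CPM in ceco-colonic libraries. Inguinal libraries held 16.1, 10.1 and 13.1 CPM, super cervical 14.4, 35.6 and 13.8 CPM, mediastinal 9.03, 8.24 and 21 CPM, and deep cervical 15, 3.3 and 3.8 CPM. The first 2 sites lay below inguinal, super cervical and mediastinal node and overlapped deep cervical node. The contrast of ileal and ceco-colonic nodes was -1.31 ± 0.35 (log2, adjusted p = 0.0297) and lost its call in 6 of 21 fits without 1 library (adjusted p 0.0626 to 0.0933). The higher level in super cervical node, 1.46 ± 0.38 (adjusted p = 0.0207), became 0.76 (adjusted p = 0.614) without super cervical library 2, so it rests on that library. Ccl2 was not called among the 6 nodes (adjusted p = 0.147): site means lay between 2.72 and 9.68 CPM. Its mediastinal libraries held 4.39, 5.02 and 19.6 CPM, and the contrast of 1.24 ± 0.48 (adjusted p = 0.0379) became 0.22 (adjusted p = 0.795) without mediastinal library 3. Ccl1, a CCR8 ligand, stayed under 4 CPM. It was higher in inguinal node (0.367, 3.73 and 1.69 CPM, log2 2.77 ± 0.76, adjusted p = 0.0125), which was lost without inguinal library 2 (adjusted p = 0.105), and in mediastinal node (1.43, 1.62 and 0.887 CPM, log2 2.14 ± 0.68, adjusted p = 0.0127). No library of the other sites held more than 0.484 CPM, so Ccl1 passed the filter only through these sites. Its calls there are no separate support for a difference.

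**Figure D2:**
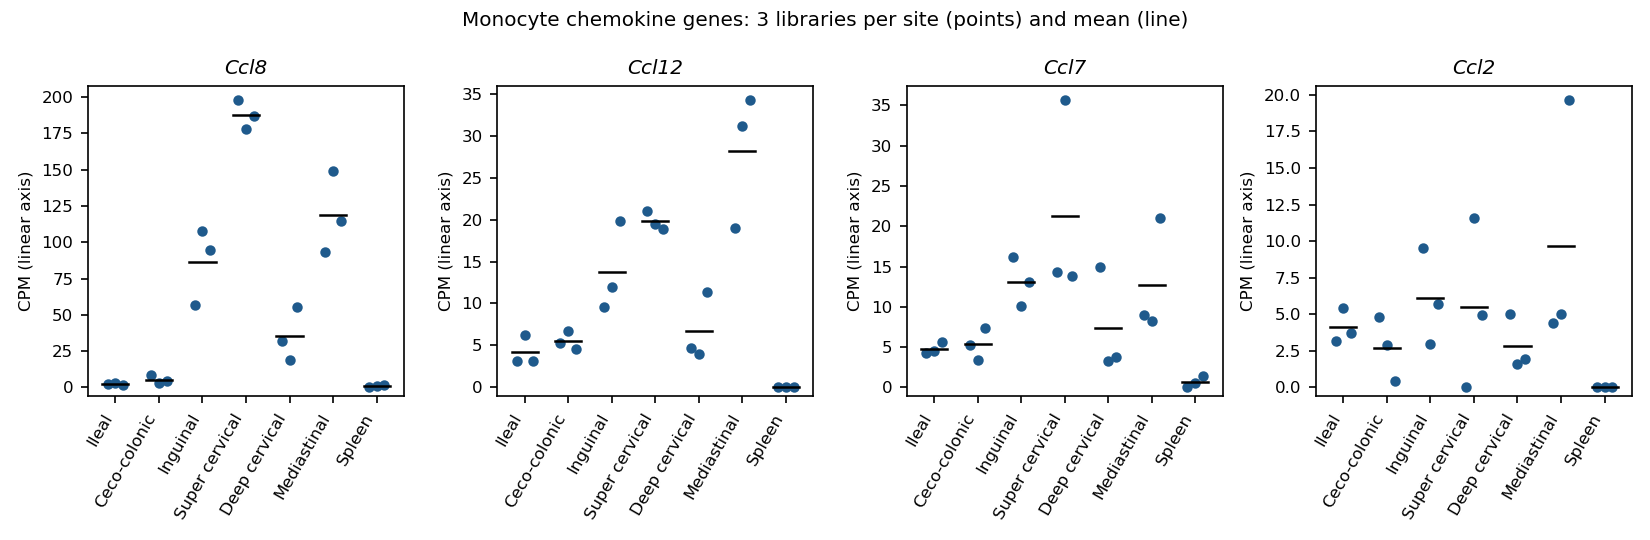
CPM (linear axis from 0) of Ccl8, Ccl12, Ccl7 and Ccl2 in each of the 3 libraries of 6 node sites and spleen (points), with the site mean as a line. Ccl8 lies under 9 CPM in ileal and ceco-colonic node and between 178 and 198 CPM in super cervical node; single high libraries stand out for Ccl7 in super cervical and Ccl2 in mediastinal node.

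Because Ccl8 and Ccl12 had the most alike site patterns and lie near each other on chromosome 11, the 250 bases before their start sites are shown, in the RefSeq promoter table for GRCm38.p6. The windows are chr11:82114935-82115184 for Ccl8 and chr11:82101595-82101844 for Ccl12, both on the plus strand, and capitals mark the TATA box letters TATAAA.

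Ccl8: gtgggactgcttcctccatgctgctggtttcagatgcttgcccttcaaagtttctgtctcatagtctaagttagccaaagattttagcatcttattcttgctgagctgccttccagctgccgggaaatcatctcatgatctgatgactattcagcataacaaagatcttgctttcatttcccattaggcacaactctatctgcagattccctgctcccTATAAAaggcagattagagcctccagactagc
Ccl12: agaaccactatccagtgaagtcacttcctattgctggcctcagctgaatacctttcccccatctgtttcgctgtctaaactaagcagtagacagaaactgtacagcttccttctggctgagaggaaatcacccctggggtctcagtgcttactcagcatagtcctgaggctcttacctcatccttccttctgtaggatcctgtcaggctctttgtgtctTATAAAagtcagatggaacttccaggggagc

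The motif begins 32 bases before the start of Ccl8 and 31 before that of Ccl12. The same 6 letters, searched on both strands, occur in 12.4% of all 32851 promoter windows of that length and in 10 of the 28 ligand genes that have a window. A ligand gene counts if any of its windows matches, and Ccl25, Ccl27a and Ccl27b have 2, 3 and 4 windows. The ligand share is thus per gene and the other share per window. Sequence matches of this kind describe the window and were not tested for use by any factor.

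Ccl19 and Ccl21a encode the CCR7 ligands that guide T cells and mature dendritic cells into the T cell zone, and the 2 genes had different site patterns. Ccl21a held 150, 229 and 105 CPM in ileal, 135, 153 and 165 CPM in ceco-colonic, and 36, 57.1 and 126 CPM in inguinal libraries. It held 44.2, 45.4 and 219 CPM in super cervical and 29.3, 46.2 and 111 CPM in deep cervical libraries. The mediastinal libraries held 848, 1028 and 918 CPM, each above all 15 libraries of the other nodes, by 3.17 ± 0.35 on the log2 scale (adjusted p = 7.98e-07). Deep cervical node was lower by -1.50 ± 0.47 (adjusted p = 0.0144), with overlap, and that call was lost without deep cervical library 1 (adjusted p = 0.0841) or 2 (adjusted p = 0.104). The 5 sites other than mediastinal spanned 29.3 to 229 CPM.

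Ccl19 held 655, 653 and 680 CPM in ileal, 1137, 1033 and 1727 CPM in ceco-colonic, and 678, 862 and 1020.0 CPM in inguinal libraries. Super cervical libraries held 1101, 976 and 865 CPM and mediastinal libraries 986, 840 and 794 CPM. Against these, the deep cervical libraries held 327, 123 and 97.4 CPM and lay below every other node library, by -2.32 ± 0.50 on the log2 scale (adjusted p = 0.000753). Mediastinal node, which was far above the rest for Ccl21a, was not called for Ccl19 (0.39 ± 0.41, adjusted p = 0.438). The difference among the 6 sites (adjusted p = 0.00613) narrowly missed the threshold without deep cervical library 2 (adjusted p = 0.0526).

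Near-identical copies limit these rows. In GENCODE M21 transcripts, 80.6% of the distinct 31-base words of Ccl21a and 58.8% of those of Ccl19 also occur in another gene, so reads could have been divided between copies. The Ccl21a row held 99.3% of the counts over the 5 Ccl21 rows, and the Ccl19 row held 97.3% of those over Ccl19 and its 5 pseudogene rows. With the copies of each family summed, an alternative chosen after seeing the data, the mediastinal contrast of Ccl21a was 3.15 (adjusted p = 8.75e-07) and the deep cervical contrast of Ccl19 was -2.34 (adjusted p = 0.000599). All 31-base words of the row named Ccl21f recur in another gene, and it held 6.75 CPM at most. It was higher in mediastinal node (log2 1.62 ± 0.51, adjusted p = 0.011, or 0.0607 without mediastinal library 3). In ileal and ceco-colonic nodes its contrast was -2.15 ± 0.55 (adjusted p = 0.0237), lost in 7 of 21 fits without 1 library.

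Cxcl13, the B cell attractant of follicles, held 41.0, 44.5 and 85.5 CPM in mediastinal libraries. It held 2.10, 5.05 and 2.23 CPM in ileal, 1.77, 4.84 and 0.462 CPM in ceco-colonic and 3.30, 3.73 and 5.01 CPM in inguinal libraries. Super cervical libraries held 6.63, 3.65 and 12.9 CPM, and deep cervical libraries 2.66, 7.70 and 37.9 CPM. The mediastinal libraries lay above all others, a log2 fold change of 3.43 ± 0.41 (adjusted p = 3.05e-06). Ileal with ceco-colonic nodes were lower than the other 4 by -2.32 ± 0.47 (adjusted p = 0.00462). The higher call in deep cervical node (1.31 ± 0.46, adjusted p = 0.0265) rested on its library 3: without it the contrast was -0.31 (adjusted p = 0.725). Upper quartile scaling (adjusted p = 0.0574), limma voom (adjusted p = 0.129), a replicate block (adjusted p = 0.0777) and leaving out ceco-colonic library 1 (adjusted p = 0.0518) also ended that call. Cxcl12, a CXCR4 ligand made by reticular and endothelial cells, had the narrowest range of site means in this group. Its mediastinal libraries held 152, 137 and 153 CPM, above the 32.0 to 82.2 CPM of all other node libraries, by 1.39 ± 0.22 on the log2 scale (adjusted p = 7.23e-05). No other site contrast called Cxcl12, and the 3 spleen libraries held 44.4, 47.5 and 45.1 CPM. Its call among the 6 node sites was lost when all 36 pull-downs were fitted together.

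**Figure D3:**
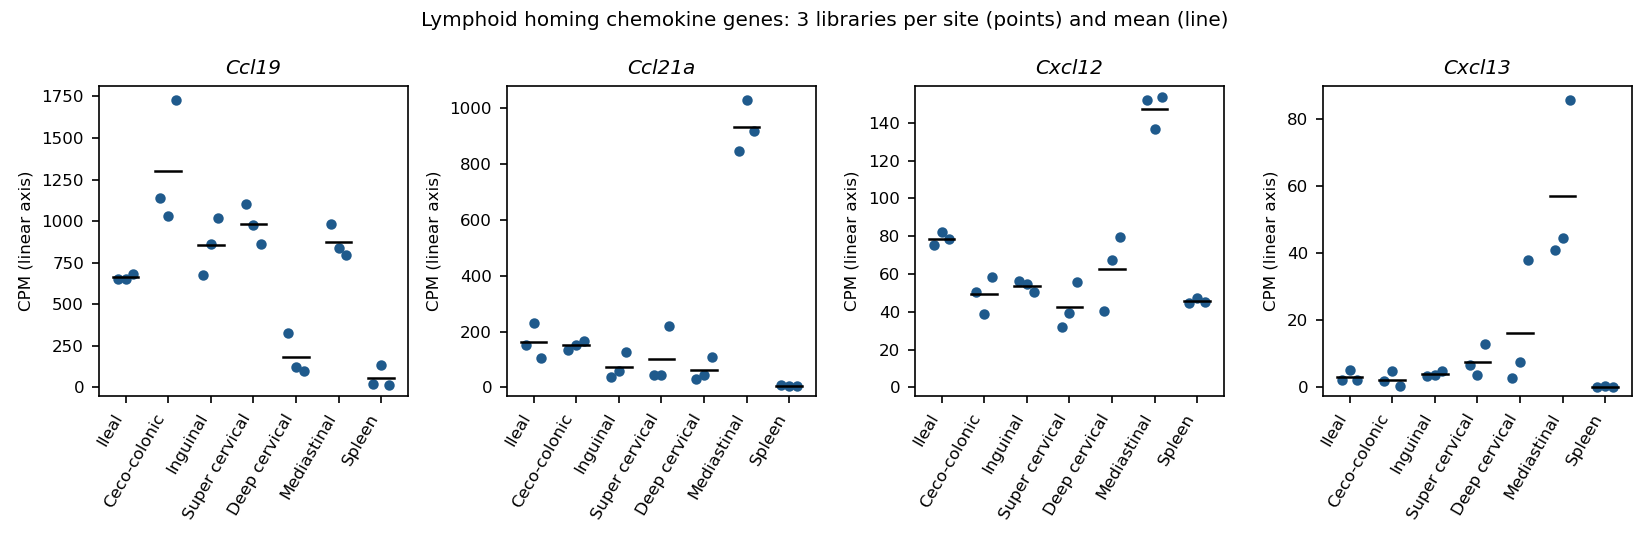
CPM (linear axis from 0) of Ccl19, Ccl21a, Cxcl12 and Cxcl13 in each of the 3 libraries of 6 node sites and spleen (points), with the site mean as a line. Mediastinal libraries stand above the other nodes for Ccl21a, Cxcl12 and Cxcl13 but not for Ccl19, which is lowest among nodes in deep cervical libraries (97.4 to 327 CPM).

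Markers of other cells moved with the mediastinal node. The 9 listed markers of blood and high endothelium all had counts there and summed to 620 to 1620 CPM, against 131 to 511 CPM in the other nodes. The 6 follicular dendritic cell markers in the table summed to 673 to 752 CPM against 304 to 681 CPM, and the 10 dendritic cell markers to 316 to 386 CPM against 71.1 to 321 CPM. The 8 lung and airway epithelium markers all had counts and summed to 293 to 1840 CPM against 3.23 to 185 CPM. Among tested markers of blood and high endothelium, 3 of 6 were called higher and 1 lower, and likewise for follicular dendritic cells. Dendritic cells had 5 of 9 higher, lung and airway epithelium 4 of 6 and reticular stroma 8 of 12, with none lower. Sinus and resident macrophages had 9 of 12 and T and NK cells 7 of 10 higher, with none lower. B cells had 4 of 7 higher and 1 lower. Of all genes, 26.2% were called higher and 22.1% lower. The part of these cells in the mediastinal levels of Ccl21a, Cxcl13, Ccl5 and the other ligand genes was not tested.

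Cxcl9 and Cxcl10, interferon-induced ligands of CXCR3 that recruit effector T cells and NK cells, did not share a site pattern. Cxcl9 held 130, 148 and 144 CPM in ileal, 116, 140 and 98.0 CPM in ceco-colonic, and 286, 268 and 153 CPM in inguinal libraries. It held 210, 198 and 58.9 CPM in super cervical, 59.9, 15.6 and 12.2 CPM in deep cervical, and 54.3, 43.8 and 51.6 CPM in mediastinal libraries. Inguinal node was higher (log2 1.52 ± 0.39, adjusted p = 0.00712), which was lost without inguinal library 1 (adjusted p = 0.0951), and deep cervical node was lower (-2.12 ± 0.51, adjusted p = 0.00194). The lower call in mediastinal node (-1.16 ± 0.47, adjusted p = 0.0427) was lost in 15 of 21 fits without 1 library, with adjusted p from 0.0563 to 0.159.

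Cxcl10 held 11.8, 16.8 and 11.2 CPM in ileal libraries and 12.6, 16 and 46.1 CPM in mediastinal libraries. Ceco-colonic libraries held 1.77, 3.39 and 1.39 CPM, inguinal 2.94, 0.373 and 2.97 CPM, super cervical 1.10, 3.04 and 5.13 CPM, and deep cervical 4.66, 2.67 and 4.24 CPM. Ileal and mediastinal libraries thus lay above all 12 others, whereas Cxcl9 had its highest node mean in inguinal node. Mediastinal node was higher than the other 5 by 2.67 ± 0.34 (log2, adjusted p = 5.19e-06). All 3 ileal libraries exceeded the 3 ceco-colonic ones, by 2.64 ± 0.61 (adjusted p = 0.0478), but the call was lost in 10 of 21 fits without 1 library, where adjusted p reached 0.251 and the fold change stayed between 2.44 and 3.14. Sinus and resident macrophage markers moved with this difference: they summed to 8230 to 9160 CPM in ileal and 1610 to 3810 CPM in ceco-colonic libraries, and 5 of 12 tested were higher in ileal node. Lymphatic endothelium markers, 8 of 8 with counts at both sites, summed to 238 to 284 CPM and 42.1 to 115 CPM, with 1 of 8 called. Their part in the Cxcl10 difference was not tested. The lower level in inguinal node (-1.47 ± 0.49, adjusted p = 0.034) was lost in 4 of 21 such fits, with adjusted p up to 0.202. Cxcl10 overlaps Art3 on the opposite strand, and the sources used here do not say whether counting used strand. The same limit holds for Ccl19 and Ccl21a (4930578G10Rik), Ccl25 (Elavl1), Cxcl16 (Zmynd15), Ccl6 (E230016K23Rik) and Ccl2 (Gm17268).

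The promoter windows of this pair are shown because the 2 genes are neighbours on chromosome 5 with unlike patterns. They are chr5:92328080-92328329 for Cxcl9 and chr5:92348890-92349139 for Cxcl10, both from the minus strand of GRCm38.p6 in the RefSeq table. Capitals mark TATAAA in Cxcl9, and in Cxcl10 a match to the interferon response core TTTCNNTTT, read on the opposite strand, followed by the AP-1 letters TGANTCA.

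Cxcl9: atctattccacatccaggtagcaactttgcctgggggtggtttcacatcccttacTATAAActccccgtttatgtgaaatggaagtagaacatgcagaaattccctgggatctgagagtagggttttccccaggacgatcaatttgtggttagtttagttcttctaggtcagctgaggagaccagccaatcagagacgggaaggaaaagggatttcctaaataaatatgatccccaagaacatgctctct
Cxcl10: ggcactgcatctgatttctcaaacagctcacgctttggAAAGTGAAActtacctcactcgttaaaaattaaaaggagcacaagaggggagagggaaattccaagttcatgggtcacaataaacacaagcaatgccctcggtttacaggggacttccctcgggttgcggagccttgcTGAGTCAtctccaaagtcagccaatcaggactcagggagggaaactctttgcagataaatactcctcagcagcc

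TATAAA lies 195 bases before the start of Cxcl9. The interferon response core lies 212 bases and the AP-1 match 74 bases before the start of Cxcl10. On either strand, TTTCNNTTT occurs in 9.37% of all windows and in 5 of the 28 ligand genes with a window, and TGANTCA in 6.75% and in 4 of 28. The STAT letters TTCNNNGAA, in 2 of 28 ligand genes with a window and in 7.02% of all windows, were not found in these 2 windows.

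Ccl5, made by activated T and NK cells among others, was another mediastinal gene. Its mediastinal libraries held 27.7, 40.4 and 33.1 CPM, and the 15 libraries of the other nodes held 1.49 to 7.36 CPM. The groups did not overlap, and the log2 fold change was 2.93 ± 0.31 (adjusted p = 5.67e-07). T and NK cell markers, 11 of 11 with counts, summed to 589 to 733 CPM in mediastinal node and to 307 to 689 CPM in ileal, ceco-colonic, inguinal and super cervical node. Ccl6 and Ccl9, myeloid CCR1 ligands of the mouse, were higher in deep cervical node. Ccl6 held 3.33, 8.80 and 27.1 CPM there (log2 2.50 ± 0.45, adjusted p = 0.000103) and Ccl9 held 11.7, 13.1 and 27.5 CPM (1.31 ± 0.33, adjusted p = 0.00321). Both calls were lost without deep cervical library 3, with log2 values of 1.38 (adjusted p = 0.0649) and 0.80 (adjusted p = 0.166). Ccl6 was also higher in mediastinal node (6.30, 9.64 and 12.4 CPM, log2 1.88 ± 0.46, adjusted p = 0.00193) and lower in inguinal node (0.367, 0.373 and 1.02 CPM, -2.50 ± 0.72, adjusted p = 0.0158), the latter lost without inguinal library 1 or 2 (adjusted p = 0.113 and 0.0757). Ccl4, an inflammatory chemokine of macrophages and lymphocytes, was not called among nodes and lay between 0 and 4.86 CPM.

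Ccl22 and Ccl17, dendritic cell products that bind CCR4, were both higher in mediastinal node. Ccl22 held 17.9, 25.3 and 15.7 CPM there and 21.9, 24.6 and 15.2 CPM in ileal libraries. Ceco-colonic, inguinal and super cervical libraries held 7.92 to 13.4 CPM, and the deep cervical libraries held 2, 1.42 and 1.15 CPM. Deep cervical node lay below every other node library (log2 -3.26 ± 0.39, adjusted p = 3.08e-07). Mediastinal node was higher by 1.29 ± 0.26 (adjusted p = 0.000453). Ccl22 was also the 1 ligand gene higher in ileal and ceco-colonic nodes, by 1.05 ± 0.23 (adjusted p = 0.00789, or 0.0585 without ceco-colonic library 3). Ccl17 held 3.25, 5.80 and 4.02 CPM in mediastinal libraries and 0 to 2.07 CPM in the other nodes, a log2 fold change of 2.49 ± 0.46 (adjusted p = 0.000241). Too few libraries outside mediastinal node reached the level of the filter, so Ccl17 passed it only through this site. Its mediastinal call is therefore no separate support for a difference.

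**Figure D4:**
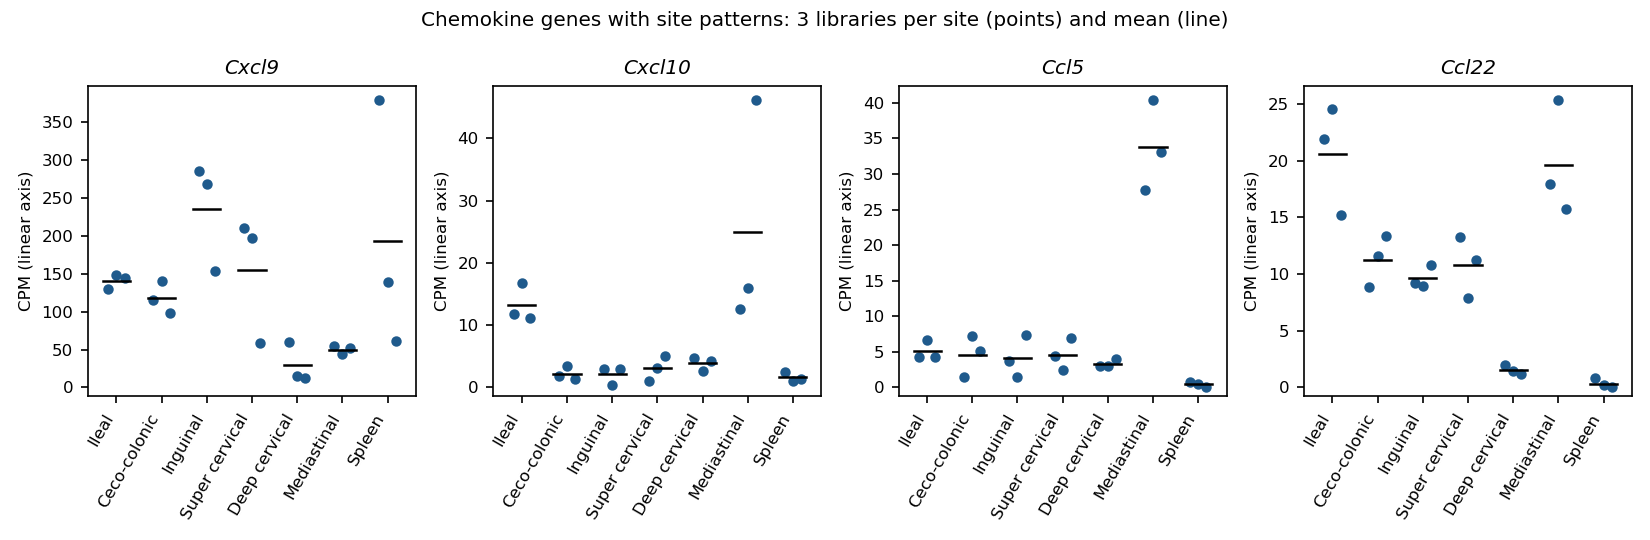
CPM (linear axis from 0) of Cxcl9, Cxcl10, Ccl5 and Ccl22 in each of the 3 libraries of 6 node sites and spleen (points), with the site mean as a line. Cxcl10 is above 11 CPM in ileal and mediastinal libraries only, Ccl5 above 27 CPM in mediastinal libraries only, and Ccl22 under 2.1 CPM in deep cervical and spleen libraries.

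The deep cervical node had a further set of higher genes. Cxcl14, a constitutive chemokine of epithelia, held 6.33, 8.33 and 18.1 CPM there and at most 4.61 CPM in any other node library (log2 3.42 ± 0.44, adjusted p = 9.67e-07). Cx3cl1, the membrane-bound ligand fractalkine, held 4, 8.96 and 8.62 CPM against at most 3.59 CPM (2.14 ± 0.41, adjusted p = 0.00021). Ccl27a, the skin-associated CCR10 ligand, held 22.6, 17.6 and 13.8 CPM against at most 7.74 CPM (1.89 ± 0.33, adjusted p = 7.19e-05). None of these 3 groups overlapped the other nodes. The Ccl27a row shares 57% of its 31-base words with other genes and overlaps Il11ra1 on the opposite strand.

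The eotaxins Ccl24 and Ccl11, which attract eosinophils through CCR3, were also higher in deep cervical node. Ccl24 held 3.33, 8.96 and 8.84 CPM there against 0 to 4.42 CPM in the other nodes, with overlap (log2 2.0 ± 0.44, adjusted p = 0.000823). Ccl11 held 3, 1.73 and 4.16 CPM in deep cervical and 2.05, 1.85 and 5.60 CPM in mediastinal libraries, and both contrasts were called (adjusted p = 1.04e-05 and 2.01e-05). It was at 0 counts in all 6 ceco-colonic and inguinal libraries, and ileal libraries held 0.767, 0.459 and 0.406 CPM, so no fold is given. No library outside deep cervical and mediastinal node held more than 0.767 CPM, so Ccl11 passed the filter only through these sites. Its calls there are therefore no separate support for a difference.

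Other markers moved with the deep cervical libraries as well. Erythroid markers, 6 of 6 with counts and all 6 called higher, summed to 4860 to 6600 CPM against 143 to 1310 CPM in the other nodes, with a median log2 fold change of 4.25. Dendritic cell markers, 8 of 9 tested called lower, summed to 71.1 to 96.2 CPM against 129 to 386 CPM, and Ccl22 and Ccl19 were lower in the same libraries. Their B cell markers summed to 301 to 398 CPM against 1330 to 2590 CPM in the other nodes, and their T and NK cell markers to 83.6 to 133 CPM against 307 to 733 CPM. Lung and airway markers, 8 of 8 with counts, summed to 96.2 to 185 CPM. They summed to 293 to 1840 CPM in mediastinal node and to 3.23 to 22.5 CPM in the remaining nodes. Of 6 tested, 2 were called higher in deep cervical node and 1 lower. Salivary gland markers, 8 of 8, summed to 46.6 to 387 CPM, against 392 to 13500 CPM in super cervical node and 2.23 to 31.7 CPM elsewhere. Of 5 tested, 2 were called higher in deep cervical node. Keratinising epithelium markers, 6 of 6, summed to 62 to 76.7 CPM against 1.77 to 59 CPM in the other nodes, with 4 of 4 tested called higher. Of tested reticular stroma markers, 6 of 12 were called higher and 2 lower, and of mast cell markers 3 of 4 higher. Follicular dendritic cells had 1 of 6 higher and 3 lower, and blood and high endothelium 2 of 6 in each direction. Sinus and resident macrophages had 1 of 12 higher and 2 lower, and lymphatic endothelium 2 of 8 lower. Of all genes, 21.9% were called higher and 16.1% lower. The part of these cells in the 8 higher and 4 lower ligand genes was not tested.

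Ccl28 and Ccl25 encode the mucosal chemokines known for homing of antibody-secreting cells and gut T cells. Ccl28 held 3.32, 2.44 and 13.0 CPM in super cervical libraries and 0.309, 0.172 and 0.229 CPM in mediastinal libraries. Super cervical node was higher by 2.99 ± 0.47 (log2, adjusted p = 0.000277), and mediastinal node lower by -2.78 ± 0.62 (adjusted p = 0.00105). The super cervical value became 1.65 (adjusted p = 0.134) without super cervical library 3, in which the 8 salivary gland markers summed to 13500 CPM, against 392 and 3300 CPM in libraries 1 and 2; their part was not tested. In ileal and ceco-colonic libraries Ccl28 held 0.413 to 3.23 CPM (contrast 0.10 ± 0.44, adjusted p = 0.921). Ccl25 was not called among the 6 nodes (adjusted p = 0.626) and lay between 0 and 5.53 CPM. Neither mucosal chemokine was called higher in the 2 intestinal node sites of this model.

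Cxcl16, a membrane-bound scavenger chemokine that binds CXCR6, was among the steadier genes, between 41.1 and 116 CPM in all 18 deep node libraries. Its difference among sites (adjusted p = 0.0447) was lost in 18 of 21 fits without 1 library, with adjusted p up to 0.198. Cxcl14 was called lower in inguinal node at 0.358 to 0.734 CPM (log2 -2.19 ± 0.77, adjusted p = 0.0435), which was lost in 12 of 21 such fits, with adjusted p up to 0.995.

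In spleen most ligand genes were lower, and the spleen TMM factors of 0.51 to 0.635 lay below the 0.707 to 1.49 of the nodes. Markers of other cells moved with spleen too. Erythroid markers, 6 of 6 with counts, summed to 12000 to 77700 CPM against at most 6600 CPM in any node library, and neutrophil markers, 8 of 8, to 41.2 to 362 CPM against at most 29.8 CPM. T and NK cell markers, 11 of 11, summed to 72.4 to 132 CPM against 83.6 to 733 CPM. Sinus and resident macrophage markers, 13 of 15 with counts and Clec4f and Vsig4 at 0, summed to 4320, 1300 and 262 CPM in spleen libraries 1, 2 and 3. The part of these cells in the spleen levels of the ligand genes was not tested. The 3 spleen libraries held 7.27, 4.29 and 4.10 CPM of Ccl21a, all below every node library (log2 -4.86 ± 0.65, adjusted p = 1.01e-06). Ccl8 held 0, 1.03 and 1.37 CPM (-5.18 ± 0.58, adjusted p = 9.98e-08) and Ccl22 held 0.808, 0.172 and 0 CPM (-5.10 ± 0.64, adjusted p = 4.68e-07), again without overlap. Cxcl16 held 6.46, 8.07 and 2.73 CPM (-3.31 ± 0.34, adjusted p = 3.32e-08). Ccl7, Ccl5 and Cxcl13 were likewise below every node library, with log2 values of -4.15, -3.58 and -4.96 (adjusted p = 8.81e-05, 0.0002 and 0.000581). The Cxcl13 value rests on 2 counts in spleen library 2 and none in the other 2 libraries. Without library 2 the call held (adjusted p = 0.0165), but the fitted value of -10.27 then has no spleen count behind it and gives no size. Ccl19 held 20.2, 134 and 15 CPM (-3.57 ± 0.55, adjusted p = 7.75e-06, or -5.27 without spleen library 2), and spleen library 2 overlapped the deep cervical libraries.

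Ccl12, Ccl2, Cx3cl1 and Ccl4 had no count in any spleen library. Set against 3 counts over the spleen group, Ccl12 was at least 33.8-fold lower than in the nodes (adjusted p = 7.33e-07), Ccl2 at least 13.4-fold (adjusted p = 0.000883), Cx3cl1 at least 6.84-fold (adjusted p = 0.000829) and Ccl4 at least 5.14-fold (adjusted p = 0.00104). In spleen libraries 1, 2 and 3 alone, 3 counts correspond to 2.42, 0.515 and 4.1 CPM. The node means were 1.976 CPM for Ccl4 and 2.631 CPM for Cx3cl1, so these bounds rest mainly on spleen library 2. Inguinal node also had a library at 0 for Ccl4 and for Cx3cl1, and super cervical node for Ccl2. Ccl27a held 0, 2.58 and 0 CPM, with all 15 spleen counts in library 2, and was lower by -1.95 ± 0.55 (adjusted p = 0.00369). Leaving out 1 library kept that call and moved its log2 value over -9.87 to -1.71, the lowest without spleen library 2, when no spleen count remained. Other lower calls were lost in some of these fits: Ccl9 (-1.73 ± 0.53, adjusted p = 0.0071) and Cxcl10 (-1.91 ± 0.65, adjusted p = 0.013) were lost without spleen library 2 (adjusted p = 0.116 and 0.172). Ccl17, Cxcl14 and Ccl21f, all at 0, 0.172 to 0.343 and 0 CPM, had adjusted p of 0.0435, 0.0185 and 0.0321 and lost their calls in 12, 3 and 4 of 21 fits without 1 library.

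The 4 genes called higher in spleen each lost that call when 1 spleen library was left out. Ccl24 held 20.2, 7.04 and 2.73 CPM (log2 2.15 ± 0.48, adjusted p = 0.000479) and gave 1.16 (adjusted p = 0.0848) without spleen library 1. Cxcl9 held 380, 140 and 61.5 CPM (0.99 ± 0.40, adjusted p = 0.0326) and gave -0.07 (adjusted p = 0.925) without the same library, 1 of 5 libraries whose removal ended the call. Ccl25 held 0, 5.84 and 1.37 CPM (1.81 ± 0.71, adjusted p = 0.0288) and gave -0.70 (adjusted p = 0.759) without spleen library 2. Ccl28 held 5.66, 3.6 and 1.37 CPM (1.61 ± 0.59, adjusted p = 0.0211), lost without library 1 (adjusted p = 0.164) or 2 (adjusted p = 0.104). Spleen library depth also bears on the low values, since 3 counts correspond to 0.515 to 4.1 CPM there.

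The 16 ligand genes that did not pass the filter had 2225 counts in all libraries together. They include the neutrophil-attracting CXCR2 ligands Cxcl1, Cxcl2, Cxcl3 and Cxcl5, the CCR6 ligand Ccl20, the mucosal chemokine Cxcl17, the lung chemokine Cxcl15, the third CXCR3 ligand Cxcl11, the dendritic cell attractant Xcl1 and the macrophage inflammatory chemokine Ccl3. The rest are Ccl26 and the copies Ccl21b, Ccl21d, Ccl21e, Ccl27al and Ccl27b. Their highest count was 445, for Cxcl1 in mediastinal library 3, where libraries 1 and 2 had 50 and 10. Cxcl17 had 277, Ccl20 158 and Cxcl5 104 counts in the same library, against 56 and 8, 17 and 8, and 7 and 2 in mediastinal libraries 1 and 2. Lung and airway epithelium markers summed to 1840 CPM in that library and to 688 and 293 CPM in the other 2; their part was not tested. Xcl1 had 80, 84 and 138 counts in the 3 mediastinal libraries. Every one of the 42 genes had a count in at least 1 of the 37 libraries.

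Among 25 listed chemokine receptors, atypical receptors and platelet chemokines, 18 were tested and 15 (83.3%) were called among the 6 nodes, against 60.9% of all genes. Mediastinal node had 8 of 18 higher and 1 lower, 50.0% of the list against 48.4% of all genes (26.2% higher and 22.1% lower). Deep cervical node had 2 higher and 6 lower, 44.4% against 38.0% (21.9% higher and 16.1% lower). Both totals are near those of all genes and single out nothing about the list. By direction, the list leaned to higher calls in mediastinal node and to lower calls in deep cervical node more than all genes did, which was not tested. Ccr7, the receptor of CCL19 and CCL21, was higher in mediastinal node (33.0 ± 2.39 CPM, SD, n = 3; log2 2.15 ± 0.29, adjusted p = 1.01e-05) and lower in deep cervical node (2.15 ± 0.66 CPM; -2.51 ± 0.43, adjusted p = 4.6e-05). Ccr2, the receptor of the MCP ligands, was lower in ileal and ceco-colonic nodes by -1.37 ± 0.32 (adjusted p = 0.0114), where Ccl8 and Ccl12 were lower too. Ackr3 (-2.12 ± 0.62, adjusted p = 0.0481) and the platelet chemokine Pf4 (-1.86 ± 0.38, adjusted p = 0.00478) were the other 2 of the list called lower there, and none was called higher, so 16.7% of the list was called against 4.60% of all genes. Inguinal and super cervical node each had 2 higher, 11.1% of the list, against 21.8% and 6.99% of all genes. Spleen had 5 higher and 6 lower, 61.1% against 61.5% of all genes. None was called between ileal and ceco-colonic node.

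In the 5 shallower sites, 3 ligand genes passed the filter, Cxcl9, Cxcl12 and Ccl19, and the F test called 1 of them, Cxcl9 (adjusted p = 0.0261), against 13.5% of 2459 genes tested. CPM here are on plain library totals. Jejunal libraries held 312.8, 424 and 3.90 CPM of Cxcl9, iliac libraries 25.9, 112.5 and 27.2 CPM, and no duodenal, liver or celiac library held more than 22.5 CPM. The call was lost without jejunal library 1 (adjusted p = 0.0972) or 2 (adjusted p = 0.103), and jejunal library 3 lay at the level of the low sites. Ccl19 held 216, 640 and 11.7 CPM in jejunal and 23.0, 242 and 22.7 CPM in iliac libraries and was not called (adjusted p = 0.251). Cxcl12 held 36.3, 47.7 and 62.4 CPM in jejunal and 46.0, 101 and 31.7 CPM in iliac libraries (adjusted p = 0.562). Over their 3 libraries, duodenal, liver and celiac node held 61, 60 and 91 counts of all 42 genes, iliac node 478 and jejunal node 2697, so most ligand genes were not measurable at this depth.

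The single isotype control, from jejunal node, held 448 ligand counts in 5002926, and the 3 jejunal pull-downs held 308, 2354 and 35. With 1 control library there is no test, and the 95% exact Poisson intervals cover counting error only. The 3 pull-downs pooled and the control had separate intervals for 7 genes, all higher in the pull-down, and overlapping ones for 35. The same count was not made over all genes, so it singles out nothing about the ligand genes. Ccl19 was 503 CPM (477 to 530.0) in the pooled pull-downs and 9.99 CPM (7.42 to 13.2) in the control, 50.3 times higher. Cxcl9 was 364 CPM against 26.8 CPM (22.4 to 31.7), 13.6 times higher, and Cxcl16 28.5 CPM against 2.6 CPM (1.38 to 4.44), 11 times higher. Ccl21a stood at 4.05 times the control, a pooled ratio in which 66 of 70 pull-down counts came from library 2. Its jejunal libraries held 0, 33.8 and 15.6 CPM against 6.4 CPM (4.38 to 9.03) in the control. In jejunal library 1, 3 counts correspond to 6.06 CPM, so its 0 could not be told apart from the control level. Cxcl12 stood at only 1.72 times the control. Ccl7 and Ccl27a had 6 and 8 counts in the pull-downs and none in the control. For Cxcl9 and Ccl19, jejunal library 3 departed from libraries 1 and 2: its Cxcl9, at 3.90 CPM, was below the control, and its Ccl19, at 11.7 CPM, lay within the control's interval. Cxcl13, Ccl28 and Ccl5 had 15, 20 and 11 counts in the control and 3, 4 and 3 in the pull-downs, with overlapping intervals. The only control library came from jejunal node, so no background value from the deeper sites stands beside their ligand levels.

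**Figure D5:**
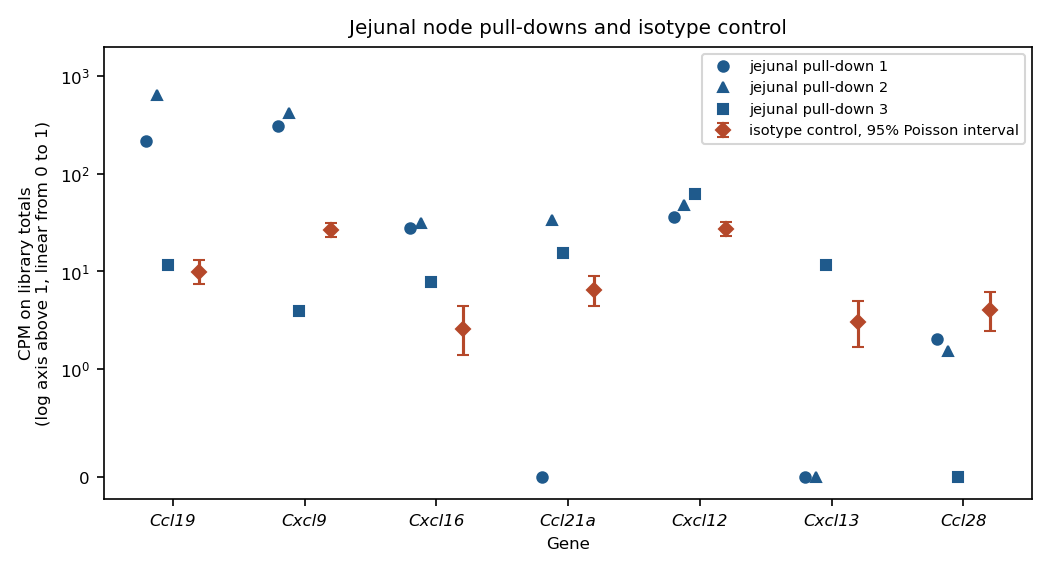
CPM on library totals of 7 ligand genes in the 3 jejunal pull-down libraries (blue, 1 symbol per library) and in the isotype control (red, with its 95% exact Poisson interval); the axis is logarithmic above 1 CPM and linear from 0 to 1. Ccl19, Cxcl9 and Cxcl16 lie above the control in pull-downs 1 and 2, pull-down 3 lies below the control for Cxcl9, and Cxcl12 is at 36.3 to 62.4 CPM in the pull-downs against 27.4 CPM in the control.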

How the data were processed

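Polyadenylated ribosome-bound RNA was sequenced from 37 libraries. The authors deposited estimated counts per gene. The notes on processing name limma, edgeR and kallisto without versions or roles, per the submitters' processing notes, and both GRCm39 and mm10 as builds, so the build of the counts is uncertain. Whether counts were scaled before deposit, or strand was used, is not given in the sources used here. Of the deposited values 32.8% were not whole and were rounded. The 211 genes without a symbol held 0.0159% to 0.115% of a library's counts. No library was left out. Features of ribosomal sequence took 1.97% to 42.7% of counts in the 21 deeper libraries and 15.5% to 85.6% in the 15 shallower ones.

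Genes were kept by filterByExpr (minimum count 10, minimum total 15), scaled with TMM and tested with edgeR 4.0.16 (robust quasi-likelihood, R 4.3.3), with Benjamini-Hochberg adjustment at 0.05. Sites whose 3 libraries all held 1000000 counts or more, and spleen, formed 1 fit of 21 libraries, and the other 15 pull-down libraries a second fit. All replicate pairs were distinct libraries. Alternatives were upper quartile scaling, DESeq2 1.42.0, limma 3.58.1 voom, no filter, removal of ribosomal features, all 36 pull-downs in 1 fit, a replicate block, each library left out, and summed copies. The fit was tested on simulated data. Genes named are those called in at least 1 comparison, with lymphoid and mucosal chemokines. The ligand genes, role groups and marker lists were chosen with earlier results of these data known. Each interval and each 3-count floor reflects counting error alone, because PCR duplicates are not separate molecules.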

Additional observations from a re-analysis of the deposited data

How the results depend on the processing

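Of the 91 called pairs of ligand gene and comparison, 57 stayed called in the same direction under every alternative run for them, 183 of 2539 alternative values fell short of the threshold and 3 changed sign: Cxcl13 in deep cervical node without its library 3, Cxcl9 in spleen without spleen library 1 and Ccl25 in spleen without spleen library 2. Over all fits without 1 library, these log2 values ran from -0.315 to 1.795, -0.0728 to 1.269 and -0.702 to 2.168. Fitting all 36 pull-downs together left 3 ligand genes for ileal and ceco-colonic nodes against 6, 0 against 1 between those sites, and 2 against 6 in inguinal node. The share of all genes called fell in the same fit, from 4.60% to 2.08%, from 0.474% to 0.203% and from 21.8% to 10.8%. It lost 18 of 82 calls, among them Ccl19 in deep cervical node (adjusted p = 0.0581), Cxcl9 in inguinal node (0.0708) and Ccl22 in ileal and ceco-colonic nodes (0.109), by edgeR. Between ileal and ceco-colonic node, upper quartile scaling and voom called 0 and no filter 2. Among shallower sites upper quartile scaling and voom called 0 and no filter 2, against 1. In inguinal node DESeq2 called 9, 3 higher and 6 lower, and in super cervical node 4, 3 higher and 1 lower. Shares of all genes called in these upper quartile, voom, no-filter and DESeq2 fits are not given here, so the counts single out nothing about the ligand genes.

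Leaving out 1 library gave 22 to 26 genes among the 6 nodes, 4 to 6 for ileal and ceco-colonic nodes, 0 to 1 between them, 13 to 18 mediastinal, 2 to 8 inguinal, 2 to 6 super cervical, 10 to 15 deep cervical, 15 to 24 spleen and 0 to 1 among shallower sites. Calls over all genes moved in the same fits, in the same order over 8565 to 12220, 311 to 1853, 11 to 206, 4763 to 9253, 687 to 4745, 243 to 2443, 3616 to 7759, 9354 to 11453 and 174 to 682 genes. The summed ligand level of jejunal pull-downs over the control, 2.87 (log2), ranged from 2.08 to 3.35 without 1 jejunal library. The cause of these changes was not tested.

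Replicate numbers were not taken as pairs, since the labels do not tie a number to an animal or day and only 19 of 63 same-numbered pairs had deviations correlated over 0.1 (range -0.37 to 0.48, median 0.02, against -0.02 between different numbers). On average, 13 of 21 libraries, not all, correlated best with those of their own number at other sites, which is a hint from the data, not from the design, of some variation shared by number. A replicate block gave 23, 5, 1, 15, 7, 4, 12 and 22 ligand calls in the 8 comparisons, of which 23, 5, 1, 15, 6, 4, 11 and 21 were calls without it, and 1 among shallower sites. Of all genes, 62.0% were called among the 6 nodes with the block, against 60.9% without it. Shares of all genes for its other comparisons are not given here, so these counts single out nothing about the ligand genes. The block ended the calls of Ccl21f in ileal and ceco-colonic nodes (adjusted p = 0.0517), Ccl2 in mediastinal node (0.0667), Cxcl13 in deep cervical node (0.0777, leaving 7 higher and 5 lower calls there) and Ccl17 in spleen (0.0526), by edgeR.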
